A study of Mus musculus with 6 samples.

Results

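Immediate early genes and glucocorticoid response genes, 36 in all, were compared between the hearts of 14-day-old mice given ETX for 1 week and those of mice given its vehicle. The members were taken as a list of gene symbols and looked up among the 19938 genes that had a transcript cluster of their own on the array; all 36 were found and all 36 passed the filter on dim genes that kept 14953 genes for testing. Where a gene had several clusters, which among the members held for Socs3 alone, the cluster with the highest mean over all arrays was used. The direction of the members was already known from earlier work on the same arrays when the list was drawn up, so the counts below describe the list and are no independent evidence of its direction.

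The groups were 3 C57BL/6J hearts at postnatal day 14 treated with ETX (replicates 6, 7 and 10) and 3 C57BL/6J hearts of the same age treated with phosphate-buffered saline, PBS (replicates 3, 9 and 12). The labels call the hearts biological replicates and do not spell out ETX, its dose, the sex of the mice or the hour of sampling. Total RNA of each heart was hybridised to 1 Affymetrix whole-transcript array. Levels below are the deposited log2 signals, differences are ETX minus PBS on the same scale, and adjusted p-values come from limma over all 14953 genes.

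Immediate early genes are switched on within minutes of a stimulus without new protein synthesis, by serum response factor, CREB and related factors that MAP kinases and calcium activate. Many encode transcription factors, among them the FOS and JUN proteins that pair to form AP-1 and the zinc finger proteins of the EGR family. Others, such as Dusp1 and Zfp36, end the response by removing phosphate from MAP kinases or by marking messenger RNAs for decay. Glucocorticoids act through the receptor Nr3c1, which binds DNA directly at the genes it raises, Fkbp5, Tsc22d3 and Per1 being widely used readouts. The Kruppel-like factors and the growth arrest genes Btg2 and Gadd45 lie between these programmes, since stress, growth factors and steroids all reach them.

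On the arrays 28 of the 36 genes lay lower in ETX than in PBS and 8 higher, with a median difference of -0.26, where all tested genes had a median of -0.01 and 51.6% lay lower. At an adjusted p under 0.05 in limma 5 members fell and 0 rose, that is 13.9% of the members in either direction, against 2.43% of all tested genes called lower, 1.14% called higher and 3.56% called in all. At an unadjusted p under 0.05 there were 16 lower (44.4%, against 13.1% of all tested genes) and 2 higher (against 8.86%). In either direction 21.9% of all tested genes had such a p. The ETX and PBS values did not overlap for 14 members that lay lower in ETX (38.9%, against 16.1% of tested genes) and for 2 that lay higher (against 11.6%). The 5 that fell were Nfkbia, Tsc22d3, Cebpd, Gadd45b and Jun. In a whole heart, fewer cells of a type that expresses a gene and less RNA per cell cannot be told apart.

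**Figure D1:**
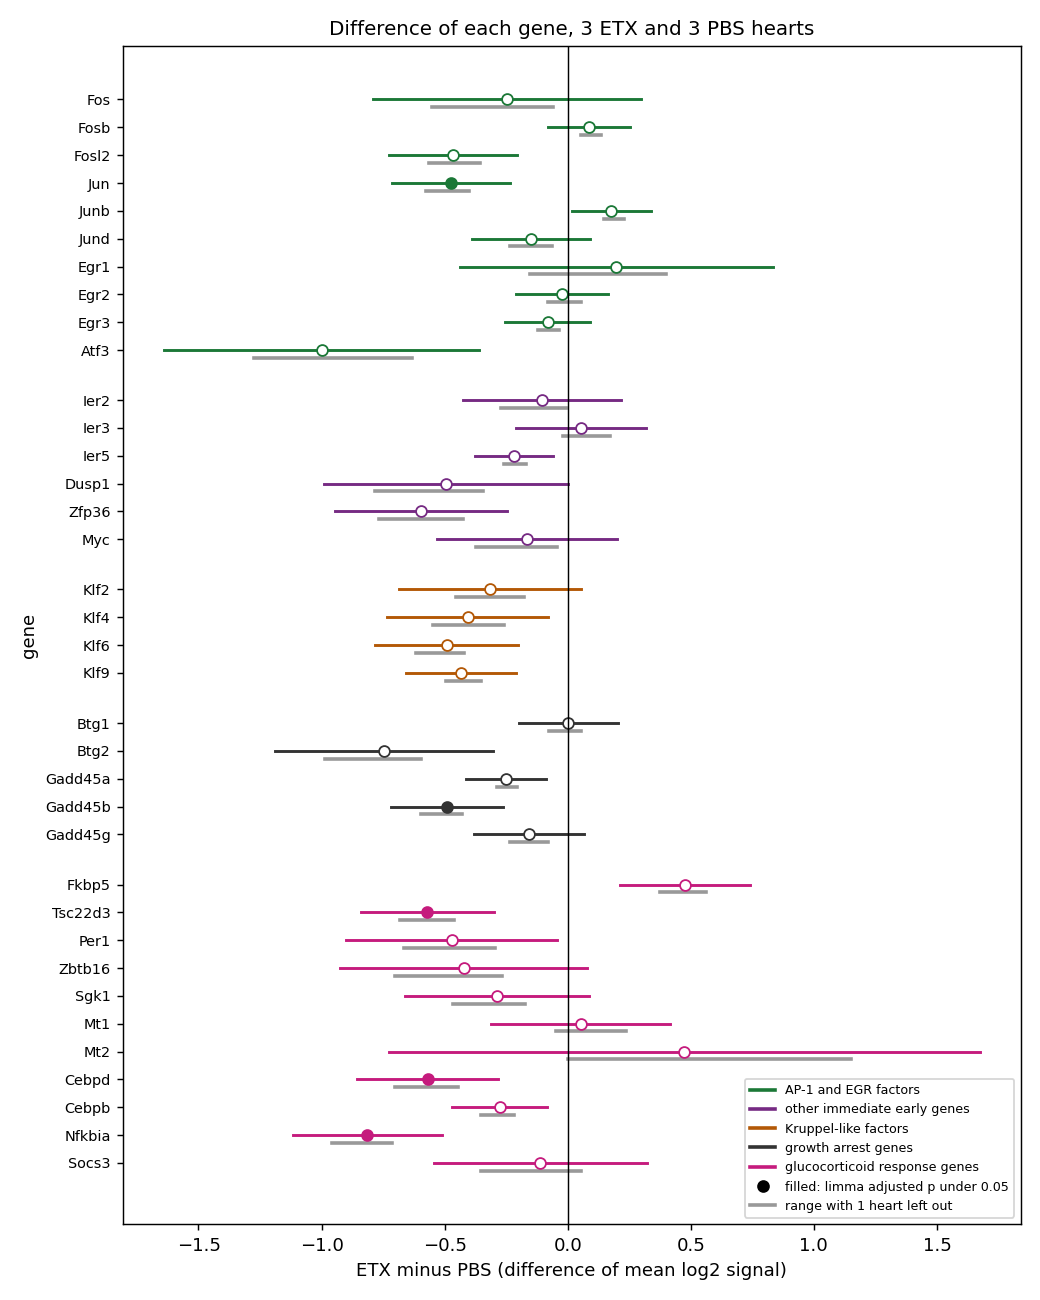
Difference of each of the 36 genes between 3 ETX and 3 PBS hearts (x axis, ETX minus PBS in log2 signal), grouped by role, with 95% intervals from limma; filled points passed an adjusted p of 0.05 and grey bars give the range with 1 heart left out. The filled points are Jun, Gadd45b, Tsc22d3, Cebpd and Nfkbia, between -0.81 and -0.47, and Fkbp5 and Junb are the genes whose interval lies above 0.

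The arrays had medians between 4.43 and 4.51, and pairs of arrays correlated at 0.993 to 0.994 within ETX, 0.985 to 0.989 between the groups and 0.989 to 0.992 within PBS. The mean log2 level of 12 cardiomyocyte markers was 12.05, 11.93 and 11.95 in ETX replicates 6, 7 and 10 and 11.99 to 12.02 in PBS. Of these markers 10 lay lower in ETX (83.3%, against 51.6% of all tested genes), with a median difference of -0.08, and 0 passed in limma. Markers of lung epithelium were high in PBS replicates 3 and 9: their mean level was 3.71 to 3.77 in ETX, and 6.29, 7.69 and 3.63 in PBS replicates 3, 9 and 12. Atrial markers were at 7.44, 7.56 and 6.16 in ETX replicates 6, 7 and 10, and at 8.04, 5.57 and 5.77 in PBS replicates 3, 9 and 12. Of 15 endothelial markers 4 fell (26.7%) and 0 rose (summed signal 7167 to 8028 in ETX, 8380 to 9019 in PBS, median difference -0.25). Of 14 macrophage markers 5 fell (35.7%) and 0 rose (1490 to 1558 in ETX, 2126 to 2897 in PBS, median difference -0.45). Of 11 fibroblast markers 1 fell (9.09%), Pdgfra, and 0 rose (8922 to 10035 in ETX, 9427 to 10814 in PBS, median difference -0.18). Among all tested genes 2.43% fell and 1.14% rose. Of 6 red blood cell markers 2 were measured and both rose, Alas2 by 0.58 and Slc4a1 by 0.63 on the log2 scale (limma adjusted p = 0.0348 and 0.0385). No value on these arrays is 0, and no detection calls were used. The part of these cell types in the differences of the 36 genes was not tested beyond the fits with the lung-marker or atrial-marker score as a covariate, in which 0 members passed in limma at an adjusted p of 0.05, against 79 and 135 genes in all. With lung markers the differences of Jun, Gadd45b, Tsc22d3, Cebpd and Nfkbia were -0.29, -0.32, -0.70, -0.50 and -0.67, with limma adjusted p = 0.208, 0.175, 0.0919, 0.193 and 0.119. Without PBS replicates 3 and 9 they were -0.27, -0.29, -0.78, -0.47 and -0.67, and 0 of them passed.

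Several of these pathways act through short DNA motifs near the transcription start, so the 250 bases upstream of each annotated start were searched for motifs on both strands. RefSeq windows were matched by symbol for 30 of the 36 members, and none for Egr1, Egr3, Ier2, Myc, Zbtb16 and Cebpd. A gene counts if any of its windows holds the motif. The 4 members with several starts, Egr2, Tsc22d3, Per1 and Sgk1, thus had more bases searched than the others. The AP-1 motif TGANTCA lay in 2 members, Klf9 and Mt2 (6.67%, against 7.82% of 27025 genes). The cyclic AMP response element TGACGTCA lay in Btg2 and Dusp1 (6.67%, against 1.77%), and the CArG box that serum response factor binds in Egr2 and Zfp36 (6.67%, against 1.62%). The EGR motif GCGNGGGCG was found in 8 members, namely Btg2, Fosb, Fosl2, Gadd45b, Klf2, Klf4, Socs3 and Zfp36 (26.7%, against 5.33%). The NF-kappa-B motif was found in Fos, Fosb, Fosl2, Ier3 and Nfkbia (16.7%, against 4.46%), and the palindromic glucocorticoid response element in Sgk1 alone (3.33%, against 0.0111%). The last share rests on 1 member, against 3 of the 27025 genes. A match describes the letters in the window and is no evidence of binding. Only these patterns within the 250 bases were searched, so the lack of a match does not show that a gene lacks the element. The shares were not adjusted for the base composition of the windows. The windows below are shown because each belongs to a gene whose values are given heart by heart further on; together they hold a match to every motif searched except AP-1, and capitals mark the motif matches.
Dusp1, GRCm38.p6 chr17:26508473-26508722, minus strand: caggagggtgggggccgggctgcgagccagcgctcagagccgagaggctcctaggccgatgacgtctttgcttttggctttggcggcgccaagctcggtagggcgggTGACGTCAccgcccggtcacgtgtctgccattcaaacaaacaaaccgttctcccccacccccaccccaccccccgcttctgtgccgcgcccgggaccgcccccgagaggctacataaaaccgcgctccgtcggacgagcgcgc
Btg2, GRCm38.p6 chr1:134079156-134079405, minus strand: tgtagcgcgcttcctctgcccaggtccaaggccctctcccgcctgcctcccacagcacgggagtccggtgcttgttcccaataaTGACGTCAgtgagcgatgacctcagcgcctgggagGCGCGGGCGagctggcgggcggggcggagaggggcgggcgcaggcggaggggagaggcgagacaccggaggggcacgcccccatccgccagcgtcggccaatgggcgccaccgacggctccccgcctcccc
Zfp36, GRCm38.p6 chr7:28379229-28379478, minus strand: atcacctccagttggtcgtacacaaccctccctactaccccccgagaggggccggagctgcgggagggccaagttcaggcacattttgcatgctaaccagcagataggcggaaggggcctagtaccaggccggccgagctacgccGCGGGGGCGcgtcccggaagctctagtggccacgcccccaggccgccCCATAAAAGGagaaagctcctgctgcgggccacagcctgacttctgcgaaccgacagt
Nfkbia, GRCm38.p6 chr12:55492648-55492897, minus strand: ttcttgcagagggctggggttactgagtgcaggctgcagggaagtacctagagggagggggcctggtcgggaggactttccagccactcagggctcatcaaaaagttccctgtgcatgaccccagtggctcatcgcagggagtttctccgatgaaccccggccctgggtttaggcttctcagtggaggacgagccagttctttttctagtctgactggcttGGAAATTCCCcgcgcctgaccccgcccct
Sgk1, GRCm38.p6 chr10:21993640-21993889, plus strand: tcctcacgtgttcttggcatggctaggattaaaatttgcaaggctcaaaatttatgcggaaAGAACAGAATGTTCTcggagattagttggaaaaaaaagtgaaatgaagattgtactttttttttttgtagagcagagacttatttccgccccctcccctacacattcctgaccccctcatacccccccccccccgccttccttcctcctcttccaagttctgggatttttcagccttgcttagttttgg
Dusp1 and Btg2 carry the same TGACGTCA letters, at positions -143 to -136 and -166 to -159 from the start. Btg2 also has an EGR motif at -131 to -123. Zfp36 has its EGR motif at -105 to -97 and its CArG box at -58 to -49, and in Nfkbia the NF-kappa-B motif lies at -29 to -20. The Sgk1 window belongs to 1 of several starts of that gene, with the glucocorticoid element at -189 to -175. None of these matches overlaps another.

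The AP-1 and EGR factors did not move as a block. Of the 10 genes 1 fell (10%, against 2.43% of all tested genes) and 0 rose (against 1.14%). Lower in ETX lay 7 (70%, against 51.6%) and higher 3. Their median difference was -0.12, and -0.05 without PBS replicate 9. Jun, the main DNA-binding partner in AP-1 (transcript cluster 10514466), was at 7.56, 7.56 and 7.74 in ETX replicates 6, 7 and 10 and at 8.15, 8.24 and 7.89 in PBS replicates 3, 9 and 12. All 3 ETX hearts lay below the PBS hearts, ETX replicate 10 and PBS replicate 12 being closest. Jun was 1.39-fold lower in ETX (7.62 ± 0.11 in ETX, 8.09 ± 0.18 in PBS, SD, n = 3 each, limma adjusted p = 0.0496). The call stood at the threshold: with 1 heart left out it held only without PBS replicate 12 (adjusted p = 0.0362), and without each of the other 5 hearts the adjusted p was up to 0.164.

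The FOS-related genes differed from each other. Fosl2, a slow and long-lived FOS protein, was at 7.0, 6.90 and 7.13 in ETX and at 7.29, 7.70 and 7.45 in PBS, without overlap and with a difference of -0.47 (limma adjusted p = 0.0634). Fos itself was at 4.63, 4.49 and 5.47 in ETX replicates 6, 7 and 10 and at 5.31, 5.11 and 4.92 in PBS. ETX replicates 6 and 7 lay below all PBS hearts and ETX replicate 10 above them, so the group difference of -0.25 had an interval of -0.79 to 0.30. Fosb differed by 0.09 (interval -0.08 to 0.25), with 4.88 to 4.98 in ETX and 4.79 to 4.96 in PBS.

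Junb, which often opposes Jun, was at 5.52, 5.68 and 5.66 in ETX and at 5.43, 5.44 and 5.46 in PBS. It is 1 of the 2 members whose ETX hearts all lay above the PBS hearts, by 0.18, and it did not pass (limma adjusted p = 0.189). Jund differed by -0.15 (interval -0.39 to 0.09), with overlapping values.

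Atf3, a stress-induced factor of the same leucine zipper class, had the largest difference of the 36. Its levels were 5.72, 5.51 and 5.68 in ETX and 6.46, 7.37 and 6.08 in PBS. The ETX hearts lay close together below all PBS hearts, while the PBS hearts spread over more than 1 log2 unit with PBS replicate 9 on top. The difference of -1.0, a 2.0-fold lower level, did not pass (interval -1.64 to -0.36, limma adjusted p = 0.0915), and it was -0.63 without PBS replicate 9. That heart also had the highest lung-marker level and the highest Lcn2, an acute phase gene chosen here after its values were seen, at 11.95 against 5.25 to 6.44 in ETX, 7.91 in PBS replicate 3 and 5.44 in PBS replicate 12. With lung markers as a covariate the Atf3 difference was -0.38 (limma adjusted p = 0.295).

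No EGR factor passed. Egr1, induced by stretch, growth factors and handling, was at 6.77, 6.68 and 7.78 in ETX replicates 6, 7 and 10 and at 7.17, 6.72 and 6.75 in PBS replicates 3, 9 and 12. ETX replicate 10 held the highest level of the 6 hearts and the other ETX hearts lay among or just below PBS. The difference was 0.20 (interval -0.44 to 0.83), and -0.15 without ETX replicate 10. Egr3 differed by -0.08 (interval -0.25 to 0.09), and Egr2, whose levels of 3.88 to 4.14 lie near the dim end, by -0.02.

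Among the other immediate early genes 0 of 6 passed in limma (against 3.56% of all tested genes), and 2 had an unadjusted p under 0.05 (against 21.9%). Lower in ETX lay 5 (83.3%, against 51.6%), and the median difference was -0.19. Zfp36, which encodes the messenger RNA decay factor tristetraprolin, was at 6.06, 5.72 and 6.40 in ETX and at 6.70, 6.65 and 6.61 in PBS, with the CArG box and EGR motif shown above. The PBS hearts spanned 0.089 and all lay above ETX, and the difference of -0.60 missed the threshold (interval -0.95 to -0.25, limma adjusted p = 0.0729). Without ETX replicate 10, its highest ETX heart, Zfp36 passed (-0.77, adjusted p = 0.0342). Without each of the other hearts Zfp36 did not pass (adjusted p up to 0.166). Ier5, an early gene of the heat shock and growth response, was lower in every ETX heart as well (5.79, 5.61 and 5.73 in ETX, 5.93, 5.95 and 5.91 in PBS), with a difference of -0.22 (limma adjusted p = 0.124).

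Dusp1, the phosphatase that switches off p38 and JNK, is by signal among the most abundant transcripts of the heart, at the 98.8th percentile of genes. It was at 9.84, 9.86 and 10.72 in ETX replicates 6, 7 and 10 and at 10.58, 10.57 and 10.75 in PBS. ETX replicates 6 and 7 had nearly equal levels well below PBS, and ETX replicate 10 lay inside the PBS range. The difference over all hearts was -0.49 (interval -0.99 to 0.00, limma adjusted p = 0.23). Without ETX replicate 10, the highest ETX heart, it was -0.78 and passed (adjusted p = 0.0228). Without each of the other hearts Dusp1 did not pass (adjusted p up to 0.495).

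Ier2 was at 5.27, 5.33 and 5.80 in ETX replicates 6, 7 and 10 and 5.48 to 5.70 in PBS, ETX replicates 6 and 7 below all PBS hearts and ETX replicate 10 above them. Myc, the growth-promoting transcription factor, was at 5.32, 5.23 and 5.34 in ETX and at 5.63, 5.71 and 5.05 in PBS replicates 3, 9 and 12. The Myc levels of ETX lay between those of PBS replicate 12 and the other PBS hearts, with a difference of -0.17 that was 0.18 with lung markers as a covariate. Ier3 differed by 0.05 (interval -0.21 to 0.32).

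All 4 Kruppel-like factors lay lower in ETX, with a median difference of -0.42 and differences between -0.49 and -0.32, the narrowest range of any of the 5 groups. None passed in limma at an adjusted p of 0.05, and 3 did at an unadjusted p under 0.05 (75%). Of all tested genes 21.9% had such an unadjusted p and 51.6% lay lower in ETX. Klf9, which glucocorticoids and thyroid hormone raise, was at 9.02, 8.81 and 9.10 in ETX and at 9.31, 9.37 and 9.55 in PBS. Klf6, an injury-response factor, was at 8.22, 8.26 and 8.62 in ETX and at 8.67, 8.96 and 8.95 in PBS. In both genes every ETX heart lay below every PBS heart, with limma adjusted p = 0.0545 for Klf9 and 0.0737 for Klf6.

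Klf2 and Klf4, which blood flow induces in endothelial cells, overlapped between the groups. Klf4 was at 7.38, 7.28 and 7.56 in ETX and at 7.53, 7.80 and 8.10 in PBS (difference -0.41, limma adjusted p = 0.15). Klf2 was at 7.68, 7.97 and 8.24 in ETX and at 8.10, 8.19 and 8.56 in PBS (difference -0.32, limma adjusted p = 0.299). In each of the 4 genes ETX replicate 10 was the highest ETX heart, and in Klf2, Klf4 and Klf9 PBS replicate 12 was the highest PBS heart. The 15 endothelial markers had a median difference of -0.25 beside them. The 4 calls were Aplnr (7.45, 7.94 and 7.75 in ETX, 8.84, 8.59 and 8.64 in PBS), Tie1, Cdh5 and Esam. In 7 of the 15 the groups overlapped, among them Kdr (-0.12), Flt1 (0.01) and Eng (0.07). The part of endothelial cells in the Klf2 and Klf4 differences was not tested. Without the PBS hearts with lung transcripts, which leaves PBS replicate 12 as the single PBS heart, the median of the Kruppel-like factors was -0.59.

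Of the 5 growth arrest genes 1 fell (20%, against 2.43% of all tested genes) and 0 rose (against 1.14%), with a median difference of -0.25. Gadd45b (transcript cluster 10364950), a stress sensor that activates p38 and JNK through MTK1, was at 5.89, 5.95 and 5.79 in ETX and at 6.44, 6.49 and 6.16 in PBS. It was 1.41-fold lower in ETX (5.87 ± 0.08 in ETX, 6.36 ± 0.18 in PBS, SD, n = 3 each, limma adjusted p = 0.0399). Here ETX replicate 10 was the lowest ETX heart, and all ETX hearts lay below all PBS hearts. With 1 heart left out Gadd45b passed only without PBS replicate 12 (adjusted p = 0.0254), and without each of the other 5 hearts its adjusted p was up to 0.113.

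Its relatives differed less. Gadd45a, a p53 target in DNA damage, was at 6.98, 6.88 and 6.88 in ETX and at 7.25, 7.13 and 7.11 in PBS, without overlap (difference -0.25, limma adjusted p = 0.0942). Gadd45g was at 5.92, 6.16 and 5.93 in ETX and at 6.32, 6.06 and 6.11 in PBS, where ETX replicate 7 lay inside the PBS range (difference -0.16, limma adjusted p = 0.392).

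Btg2, an antiproliferative cofactor of messenger RNA deadenylation, had the larger difference but not the call. It was at 6.33, 6.46 and 7.11 in ETX replicates 6, 7 and 10 and at 7.32, 7.58 and 7.25 in PBS. All ETX hearts lay below PBS, ETX replicate 10 only just. The level was 1.68-fold lower on average (interval of the log2 difference -1.19 to -0.31, limma adjusted p = 0.0747). Btg2 passed without ETX replicate 10, its highest ETX heart (-0.99, adjusted p = 0.0236). Without each of the other hearts Btg2 did not pass (adjusted p up to 0.22). Btg1, its close paralogue, had the same mean of 8.34 in ETX and in PBS (interval of the difference -0.20 to 0.20).

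**Figure D2:**
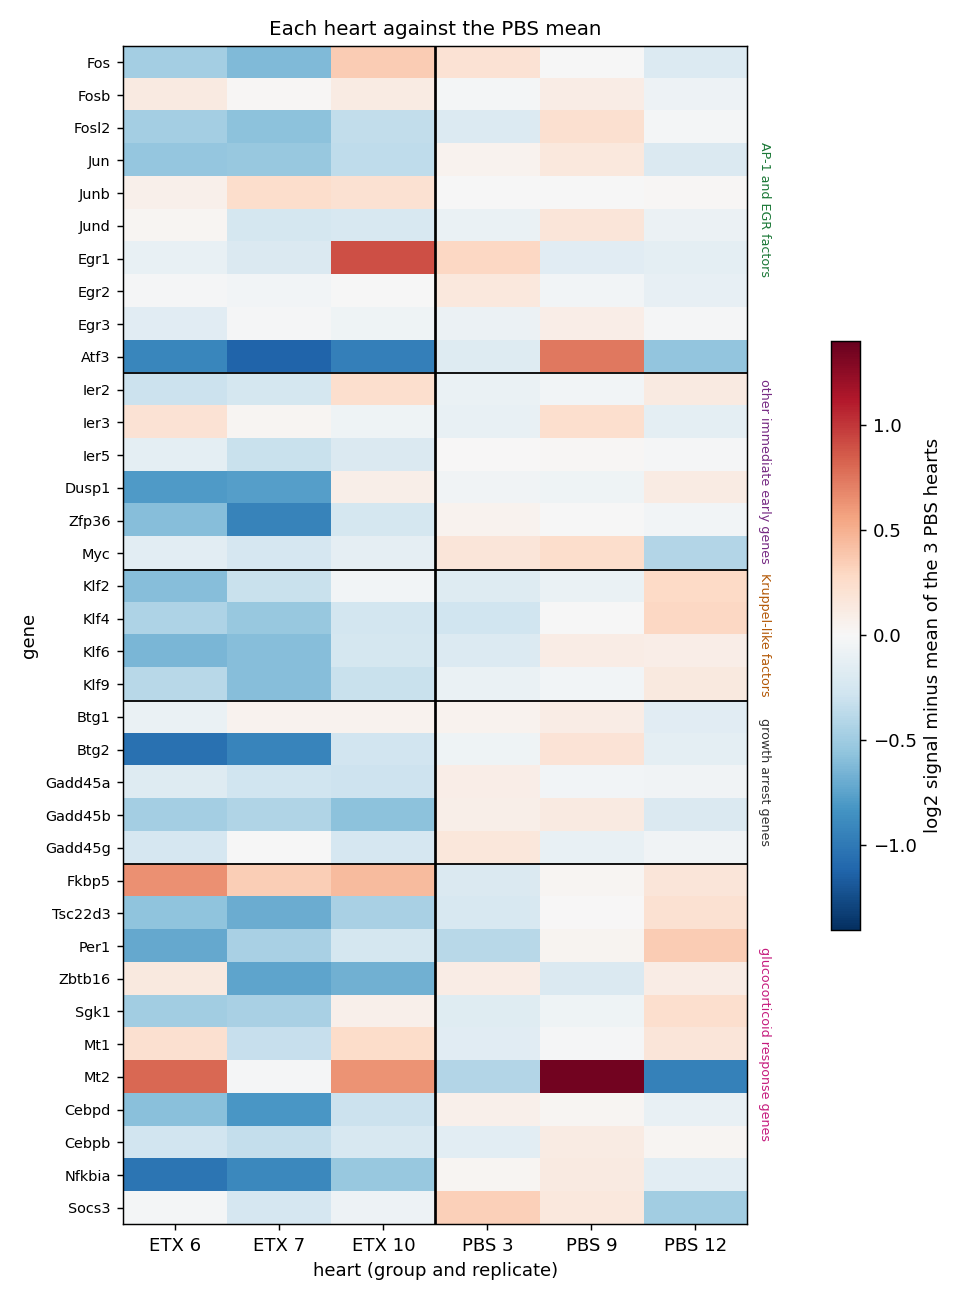
Level of each gene (rows, grouped by role) in each heart (columns, ETX left of PBS) minus the mean of the 3 PBS hearts, in log2 signal; blue is below the PBS mean and red above. ETX replicate 10 is red for Egr1, Fos, Ier2, Dusp1 and Sgk1 where ETX replicates 6 and 7 are blue, Fkbp5 is red in all ETX hearts, and PBS replicate 9 stands out for Atf3 (7.37) and Mt2 (10.02).

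The glucocorticoid response genes held 3 of the 5 calls and also the clearest difference the other way. Of 11 genes 3 fell (27.3%, against 2.43% of all tested genes) and 0 rose (against 1.14%). Lower in ETX lay 8 (72.7%, against 51.6%) and higher 3, and the median difference was -0.29. Nfkbia (transcript cluster 10400405), the inhibitor that holds NF-kappa-B in the cytoplasm and is raised both by glucocorticoids and by NF-kappa-B itself, was at 7.66, 7.78 and 8.15 in ETX and at 8.70, 8.80 and 8.53 in PBS. All ETX hearts lay below all PBS hearts, ETX replicate 10 being the highest of the ETX hearts and PBS replicate 12 the lowest of the PBS hearts. Nfkbia was 1.76-fold lower in ETX (7.86 ± 0.26 in ETX, 8.68 ± 0.14 in PBS, SD, n = 3 each, limma adjusted p = 0.0251). It passed without ETX replicate 10 (0.0228) and without PBS replicate 12 (0.0408), and not without each of the other 4 hearts (up to 0.0969).

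Tsc22d3 (transcript cluster 10606989) encodes GILZ, an anti-inflammatory mediator of glucocorticoids. It was at 6.97, 6.85 and 7.09 in ETX and at 7.32, 7.55 and 7.75 in PBS, all ETX hearts below PBS. The level was 1.48-fold lower in ETX (6.97 ± 0.12 in ETX, 7.54 ± 0.22 in PBS, SD, n = 3 each, limma adjusted p = 0.0423). With 1 heart left out it passed only without PBS replicate 3 (0.049, against up to 0.147 without each of the others).

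Cebpd (transcript cluster 10433885), an acute phase transcription factor, was at 4.82, 4.60 and 5.11 in ETX and at 5.48, 5.44 and 5.31 in PBS. The groups did not overlap and the level was 1.48-fold lower in ETX (4.84 ± 0.26 in ETX, 5.41 ± 0.09 in PBS, SD, n = 3 each, limma adjusted p = 0.0496). It passed without ETX replicate 10 (0.0335) and lost the call without each of the other 5 hearts (up to 0.134). Its relative Cebpb lay lower in every ETX heart too, at 5.99 to 6.10 in ETX and 6.18 to 6.44 in PBS (difference -0.28, limma adjusted p = 0.112).

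Fkbp5, which encodes a co-chaperone that lowers the hormone affinity of the receptor and is itself induced by it, lay higher in ETX. Its levels were 6.45, 6.15 and 6.24 in ETX and 5.6, 5.83 and 5.98 in PBS. Every ETX heart lay above every PBS heart, with a 1.39-fold difference that missed the threshold (interval of the log2 difference 0.21 to 0.74, limma adjusted p = 0.0618) in all 6 fits without 1 heart as well (0.0663 to 0.158). The interval of Tsc22d3, another common readout of the same receptor, ran from -0.84 to -0.30 in the same hearts.

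Per1, Sgk1 and Zbtb16 had differences in the direction of Tsc22d3 and opposite to Fkbp5, but their groups overlapped and none passed. Per1, a clock gene that glucocorticoids raise, was at 6.93, 7.20 and 7.40 in ETX and at 7.26, 7.69 and 8.0 in PBS. The groups overlapped in the range of ETX replicate 10 and PBS replicate 3 (difference -0.47, interval -0.90 to -0.04, limma adjusted p = 0.193). Sgk1, a kinase that governs sodium transport and the gene with the palindromic element shown above, was at 6.94, 6.98 and 7.5 in ETX replicates 6, 7 and 10 and at 7.26, 7.37 and 7.66 in PBS (difference -0.29, interval -0.66 to 0.08).

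Zbtb16 encodes the zinc finger repressor PLZF. It was at 8.26, 7.38 and 7.45 in ETX replicates 6, 7 and 10 and at 8.22, 7.92 and 8.22 in PBS. ETX replicate 6 held the highest level of all and the other ETX hearts the lowest, so the difference of -0.42 had an interval of -0.92 to 0.08. Without ETX replicate 6 it was -0.70 and passed (limma adjusted p = 0.0479). Without each of the other hearts Zbtb16 did not pass (adjusted p up to 0.606).

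The metallothioneins Mt1 and Mt2, small zinc-binding proteins that metals and glucocorticoids both induce, did not pass. Mt1 was among the brightest transcripts, at 11.44, 10.90 and 11.47 in ETX and 11.06, 11.21 and 11.39 in PBS (difference 0.05, interval -0.31 to 0.42). Mt2 was at 9.47, 8.65 and 9.30 in ETX and at 8.25, 10.02 and 7.73 in PBS replicates 3, 9 and 12. PBS replicate 9 was the highest heart and the other PBS hearts the lowest, and the difference of 0.47 (interval -0.73 to 1.67) ran from 0.0027 without PBS replicate 12 to 1.15 without PBS replicate 9. The genes are close paralogues, and cross-hybridisation between their probes was not tested.

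Socs3, the inhibitor of cytokine signalling, was at 5.69, 5.49 and 5.65 in ETX and at 6.06, 5.87 and 5.24 in PBS replicates 3, 9 and 12. The ETX hearts lay inside the PBS range (difference -0.11, interval -0.54 to 0.32). A second, dimmer Socs3 cluster differed by 0.097 and thus in the opposite direction.

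**Figure D3:**
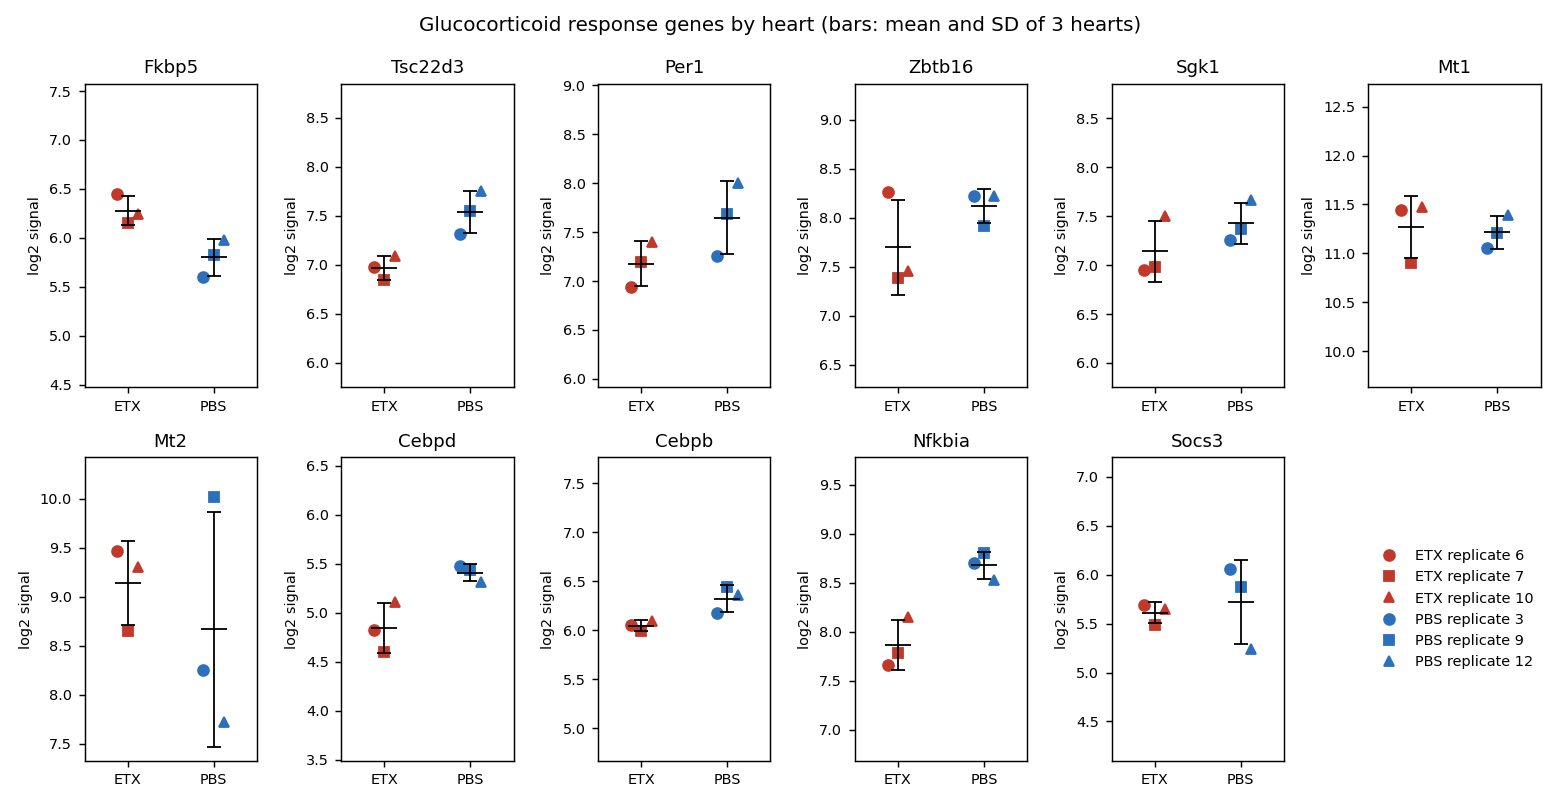
Level of the 11 glucocorticoid response genes in each heart (y axis, log2 signal; each panel spans the same number of log2 units; symbols are hearts, bars the mean and SD of 3), ETX left of PBS. The ETX hearts of Tsc22d3, Cebpd, Cebpb and Nfkbia lie below all PBS hearts, those of Fkbp5 above them, and Mt2 spreads most within PBS, from 7.73 to 10.02.

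Heart by heart, ETX replicate 10 stood apart from ETX replicates 6 and 7. It was the highest ETX heart in 22 of the 36 genes (61.1%, against 36.6% of all tested genes), ETX replicate 6 in 10 (against 33.2%) and ETX replicate 7 in 4 (against 30.2%). The trait was not particular to the members. The share for ETX replicate 10 was 66.7% of endothelial markers, and 70.6%, 64.3% and 83.3% of the MAP kinase route, clock and zinc lists given below. It was 40% of the growth arrest genes, 35.7% of macrophage markers and 28.6% of the further glucocorticoid targets. Lower shares were seen in fibroblast (18.2%), cardiomyocyte (8.33%), atrial (0%) and red blood cell markers (0% of 2). ETX replicate 6 was the highest ETX heart in 11 of the 12 cardiomyocyte markers and ETX replicate 7 in 8 of the 11 fibroblast markers. In Fos, Ier2, Dusp1, Klf2, Klf4, Per1 and Sgk1 ETX replicate 10 reached the PBS range or exceeded it while ETX replicates 6 and 7 both lay below all PBS hearts. These 7 members stand against 5.95% of all tested genes with that order; the matching order in which only ETX replicate 6 was not below all PBS hearts was seen in 2 members (4.46% of tested genes), and that with only ETX replicate 7 in 1 (3.23%). The orders were looked for after the values had been seen. The median of the 36 genes relative to the PBS mean was -0.28, -0.33 and -0.21 in ETX replicates 6, 7 and 10, and -0.05, 0.03 and -0.05 in PBS replicates 3, 9 and 12.

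The spread among the ETX hearts was also set out by group of genes, as a description. For the other immediate early genes the medians relative to PBS were -0.22, -0.28 and -0.09 in ETX replicates 6, 7 and 10. For the Kruppel-like factors they were -0.51, -0.57 and -0.25, and for the AP-1 and EGR factors -0.14, -0.22 and -0.03. The growth arrest genes gave -0.24, -0.28 and -0.27, and the glucocorticoid genes -0.27, -0.45 and -0.23. The mean atrial marker level differed between these hearts as well, at 7.44 and 7.56 in ETX replicates 6 and 7 and 6.16 in ETX replicate 10. Single markers differed unequally. Myl7 was at 9.03, 8.84 and 6.24 in ETX replicates 6, 7 and 10, and Nppa at 12.12, 12.48 and 11.89. The part of atrial tissue in the order of the ETX hearts was not tested. PBS replicate 3, with the highest atrial markers of all (8.04), was the highest PBS heart for Fos (5.31) and lay between the other PBS hearts for Dusp1 (10.58). In the other 5 genes in which only ETX replicate 10 reached the PBS range, PBS replicate 3 was the lowest PBS heart. It was at 5.48 for Ier2, 8.10 for Klf2, 7.53 for Klf4, 7.26 for Per1 and 7.26 for Sgk1. The level of the lowest PBS heart is itself part of the rule that picked these genes. With atrial markers as a covariate the differences of Fos, Dusp1 and Klf2 were -0.20, -0.39 and -0.23, against -0.25, -0.49 and -0.32 without it. None passed in limma with the covariate (adjusted p = 0.716, 0.36 and 0.447) or without it (0.589, 0.23 and 0.299). The lack of calls with the covariate therefore gives no information on atrial tissue.

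**Figure D4:**
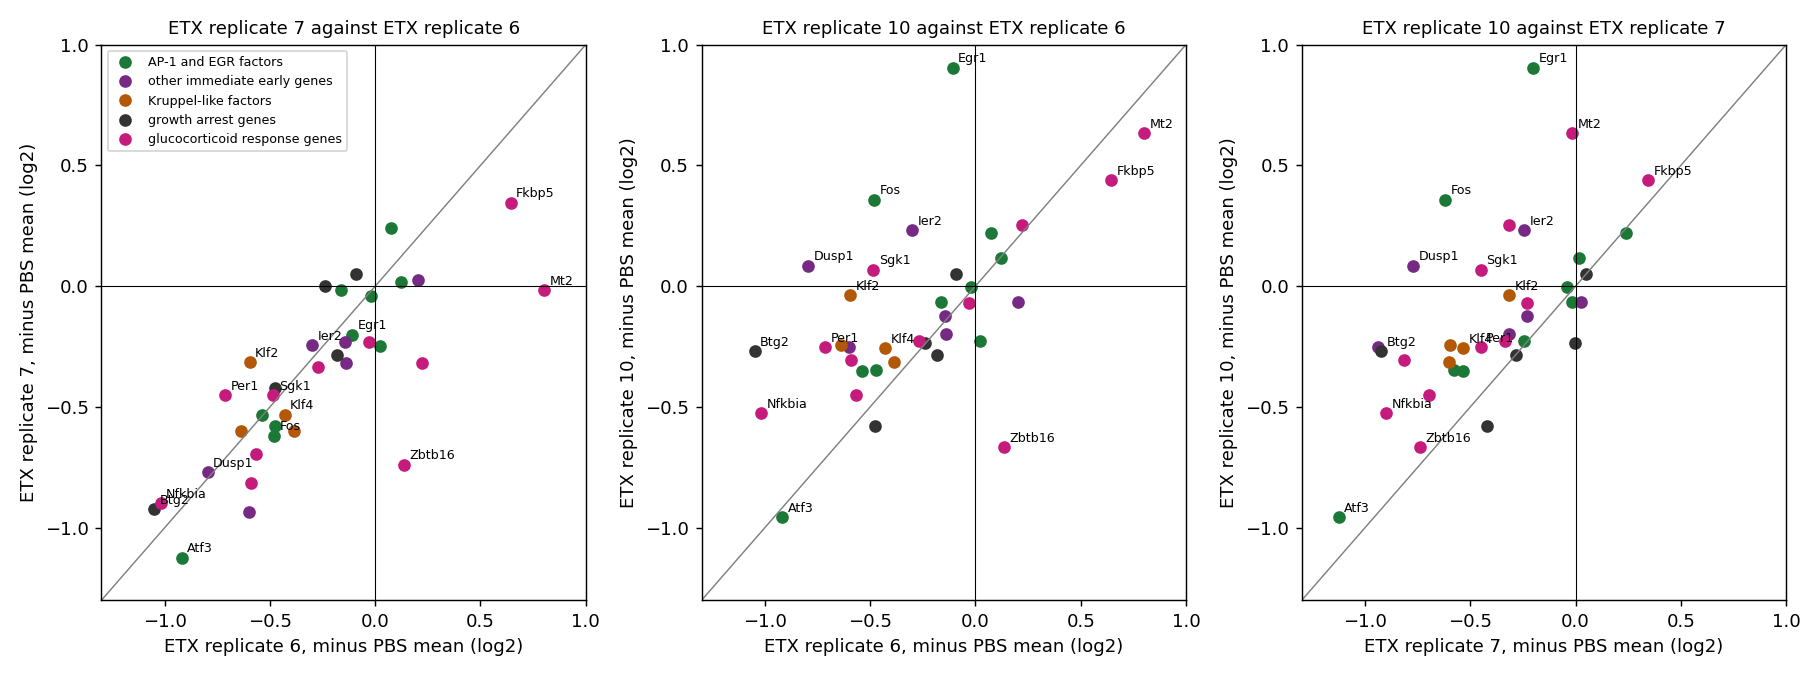
Each panel sets 1 ETX heart against another for the 36 genes (both axes, log2 signal minus the mean of the 3 PBS hearts; the diagonal marks equal levels). Most genes lie near the diagonal between ETX replicates 6 and 7, Zbtb16 and Mt2 being farthest from it, whereas Fos, Dusp1, Ier2, Sgk1, Klf2, Btg2 and Egr1 lie above it for ETX replicate 10 in both other panels.

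Of 22 further immediate early genes tested 5 fell (22.7%, against 2.43% of all tested genes) and 0 rose (against 1.14%) in limma, with a median of -0.17. The calls were Nr4a1 and Nr4a3, orphan receptors induced with the early genes, Csrnp1, Rgs2 and Errfi1. Nr4a1 was at 6.23, 6.32 and 7.54 in ETX replicates 6, 7 and 10 and at 8.22, 8.30 and 8.92 in PBS, 3.44-fold lower (limma adjusted p = 0.0348), and ETX replicate 10 was the highest ETX heart there too. Nr4a3 was 1.79-fold lower (limma adjusted p = 0.0464). Rgs2, which ends signalling through Gq-coupled receptors, was at 6.89, 6.67 and 6.64 in ETX and at 7.59, 7.56 and 7.75 in PBS (limma adjusted p = 0.006), with ETX replicate 10 as the lowest. Csrnp1 was 1.33-fold lower (limma adjusted p = 0.0318) and Errfi1, a feedback inhibitor of the EGF receptor, 1.51-fold lower (0.0277).

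Of 17 genes of the SRF, ETS and MAP kinase route 0 passed in limma and the median was -0.07. At an unadjusted p under 0.05 there were 2, both lower in ETX (11.8%, against 13.1% of all tested genes lower and 21.9% in either direction). Srf differed by -0.03 (interval -0.20 to 0.13). The lowest p belonged to the p38 kinase gene Mapk14 (-0.27, limma adjusted p = 0.0852) and to Creb1 (-0.35, 0.115), whose product binds the element found in Dusp1 and Btg2.

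Of 21 further glucocorticoid targets 4 fell (19%, against 2.43% of all tested genes) and 1 rose (against 1.14%) in limma, with a median of -0.21. The ubiquitin ligase gene Fbxo32 was at 7.35, 7.44 and 7.35 in ETX and at 7.90, 7.87 and 7.93 in PBS, 1.43-fold lower (limma adjusted p = 0.00977). Irs2, an insulin receptor substrate, was 2.35-fold lower (0.00977), the cell cycle inhibitor Cdkn1c 1.39-fold lower (0.0158) and the leucine sensor Sesn1 1.25-fold lower (0.0394). Ptgds, a prostaglandin D2 synthase, rose to 8.46, 7.07 and 7.83 in ETX, against 6.2, 5.70 and 5.98 in PBS, 3.54-fold higher (limma adjusted p = 0.0266). Insulin and FOXO factors also govern several of these genes, and the list does not separate those inputs from the steroid.

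The receptor itself, Nr3c1, was at 7.78, 7.85 and 7.84 in ETX and at 7.97, 8.07 and 8.05 in PBS, without overlap (difference -0.21, limma adjusted p = 0.118). Its chaperone Hsp90aa1 differed by -0.30 (limma adjusted p = 0.122) and the mineralocorticoid receptor Nr3c2 by -0.16 (0.345). Hsd11b1, the enzyme that regenerates active glucocorticoid in tissues, was at 4.10, 3.97 and 3.81 in ETX and at 3.87, 4.95 and 3.88 in PBS, with PBS replicate 9 apart. Of the 10 genes of receptor and steroid handling 0 passed in limma, and 4 had an unadjusted p under 0.05 (40%, against 21.9% of all tested genes). Lower in ETX lay 9 (90%, against 51.6%), and the median was -0.17.

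Of 11 NF-kappa-B genes tested 0 passed in limma beside the call of Nfkbia, with Birc3 (-0.37, limma adjusted p = 0.103) and Cxcl1 (-0.70, 0.192) in front. At an unadjusted p under 0.05 there were 3, all lower in ETX (27.3%, against 13.1% of all tested genes lower and 21.9% in either direction). By direction 9 of the 11 lay lower in ETX (81.8%, against 51.6%), and the median was -0.21. Cxcl1 was at 5.14, 5.10 and 5.07 in ETX and at 6.10, 6.27 and 5.04 in PBS replicates 3, 9 and 12, high in the hearts with lung transcripts. Of 14 clock genes 0 passed in limma (2 at an unadjusted p under 0.05, no more than the 21.9% of all tested genes) and the median was 0.04. Dbp, Nr1d1 and Arntl, whose levels follow the time of day, differed by 0.32 (interval -0.03 to 0.67), 0.02 (-0.28 to 0.31) and -0.12 (-0.34 to 0.10), beside the -0.47 of Per1. Bhlhe41 (0.49) and Hlf (-0.25) had the smallest p of that list (limma adjusted p = 0.0775 and 0.152). Of 6 zinc response genes 0 passed in limma, and 3 had an unadjusted p under 0.05 (against 21.9% of all tested genes). The zinc importer Slc39a10 at -0.36 and the brain-type metallothionein Mt3 at 0.42 were in front (limma adjusted p = 0.0814 and 0.102).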

How the data were processed

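Gene expression was measured in 6 hearts, 1 array each. The deposited log2 signals are the authors' values, made with Affymetrix Expression Console and RMA per the submitters' processing notes, with no version given. RMA corrects background, equalises distributions between arrays and summarises probes, which compresses differences of dim genes. The table held 35556 clusters, of which 21789 had 1 gene symbol in the platform annotation; the array build is not given in the sources used here. Genes under the lower quartile of gene means (3.45) were left out. Groups were compared with limma 3.58.1 (lmFit, eBayes, two-sided, Benjamini-Hochberg, threshold 0.05) in R 4.3.3, and intervals are 95%. The same fit was also run on simulated data with independent noise, which cannot show the effect of lung or atrial tissue. The number of arrays limits the precision. The 36 members, their 5 groups, the other lists and the alternatives were chosen with earlier results of these data known. Of 188 other list entries 16 were not found by symbol. Values by heart are given for members past the threshold, the 4 smallest p of each group and a fixed set. From other lists the calls, the 2 smallest p and fixed genes are named, with values by heart for some only. Promoters are RefSeq, GRCm38.p6. Figures were drawn with matplotlib 3.10.9.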

Additional observations from a re-analysis of the deposited data

How the results depend on the processing

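No paired analysis was possible because the ETX and PBS hearts share no replicate number. The number of genes called, 533 of 14953, became 909 with genes under the median left out, 870 with an intensity trend, 79 with the lung-marker score, 135 with the atrial-marker score and 19 without PBS replicates 3 and 9, and ran from 90 to 242 with 1 heart left out. The 5 member calls became 2 without a filter, 11 with the stricter filter, 9 with an intensity trend, 3 with a further quantile normalization, and 0 with either marker score or without PBS replicates 3 and 9, where PBS replicate 12 is assumed to vary like the others; they ran from 0 to 5 with 1 heart left out. All 5 calls stood among the 11, among the 9 and among the 7 found with arrays centred on their median. Fkbp5 was called higher in only 2 of the 15 alternatives, among the 11 and among the 9 (limma adjusted p = 0.0351 and 0.0451). With the lung-marker score Fkbp5 differed by 0.38 and did not pass (limma adjusted p = 0.244), and without PBS replicates 3 and 9 it differed by 0.30. Without ETX replicate 10 there were 5 calls, 2 of them shared with the full set. The median of each of the 5 member groups kept its sign under all 15 alternatives, but sizes moved: the AP-1 and EGR median of -0.12 was -0.033 with the lung-marker score, -0.052 without PBS replicate 9 and -0.058 without PBS replicates 3 and 9; the glucocorticoid median of -0.29 was -0.45 with the lung-marker score and -0.47 without PBS replicates 3 and 9; the median of the other immediate early genes, -0.19, was -0.30 without PBS replicate 12. Differences of uncalled genes near 0 changed sign: Btg1 to -0.027 with centred arrays and -0.0018 with the atrial-marker score; with the lung-marker score Egr2 to 0.033, Myc to 0.18, Mt1 to -0.061 and Socs3 to 0.24; without PBS replicates 3 and 9 the same genes to 0.091, 0.25, -0.12 and 0.37. With 1 heart left out Btg1 ran from -0.076 to 0.056, Ier3 from -0.020 to 0.17, Mt1 from -0.048 to 0.24, Egr1 from -0.15 to 0.40, Egr2 from -0.079 to 0.054 and Socs3 from -0.35 to 0.055. The cause of these shifts was not tested, and fits with fewer hearts or a covariate have fewer degrees of freedom. No detection calls were used, so no limit from signal over background can be given.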
